A study of Trachemys scripta elegans with 3 samples.

Results

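The genes of the circadian clock in the red-eared slider (the turtle Trachemys scripta elegans) were described in liver at 3 salinities. Members were the assembled transcripts (unigenes) whose best protein match came from a turtle or alligator of the genera Chrysemys, Chelonia, Pelodiscus, Trachemys or Alligator, and whose match description carried the name of a clock protein family. Those families were the CLOCK, BMAL and neuronal PAS proteins, the period proteins, the cryptochromes, the REV-ERB receptors, the class E bHLH proteins, the D site-binding protein, thyrotroph embryonic factor and nocturnin. The wording found 43 unigenes among the 205118 rows of the table used here, of which 31658 rows were matched to the same 5 genera. The 43 unigenes carried 20 gene names. Of these, 16 names and 24 unigenes were counted as clock genes, among them 3 CRY1-like unigenes whose gene was not settled. The other 19 unigenes were the DASH cryptochrome and proteins that share a family name only (NPAS3, NPAS4-like and BHLHE23).

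Slider turtles of 2 years of age, 9 in all, were kept for 30 days in freshwater (0 psu), or in water of 5 psu or 15 psu, with 3 turtles in each group. The labels name no treatment other than salinity, all groups shared the diet, equal hours of light and dark and a final day of fasting, and all were chilled for anaesthesia before the liver was taken. The hour of the day at which the livers were taken is not given in the sources used here, and a difference in hour between the groups cannot be told apart from salinity. The livers of a group were mixed into 1 RNA-seq library, so each value below is that of 1 library, with no replicate error and no test of any difference, and the labels write the salinities with a percent sign.

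In vertebrates the clock is a loop of transcription. CLOCK, or its close relative NPAS2, pairs with BMAL1 (gene ARNTL) and activates the genes of the period and cryptochrome proteins, which return to the nucleus and repress that activation. REV-ERB receptors repress ARNTL in an interlocking loop, DEC proteins compete with CLOCK and BMAL1 for the same DNA sites, and PAR bZIP factors carry the rhythm to metabolic genes. In the liver of mammals this clock is set largely by feeding and by glucocorticoid hormone, and the levels of most of its members depend on the hour.

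Levels are FPKM, which scales the fragments of a unigene by its length and by the size of the library. The 5 psu library held 38 of the 43 members above 0, against 34 in freshwater and 32 at 15 psu, and 29 were above 0 in all 3 libraries. Over all rows of the table the order was the same, with 119996 above 0 at 5 psu, 102765 in freshwater and 102228 at 15 psu. The paper lists the most clean reads for the 5 psu library, so these counts are not particular to the members. FPKM reached 1 in any library for 32 members, stood at 1 or more in all 3 libraries for 19, and reached 10 in any library for 5. A further 11 members were above 0 in 1 or 2 libraries, and 3 were listed at 0 in all 3. A KEGG gene name was given to 25 members, a Swissprot match to 23 and a Pfam domain to 21, while 18 had none of these. The best match was to the painted turtle Chrysemys picta bellii for 27 members, to the green turtle Chelonia mydas for 14, to the softshell Pelodiscus sinensis for 1 and to the alligator for 1. In the RefSeq gene table of the slider (assembly CAS_Tse_1.0), used for names only, 15 of the 20 names were found as gene symbols. PER3 and ARNTL2 were searched for and had no member.

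Log2 ratios were computed after adding 0.1 to each FPKM, and none is given where a library is listed at 0. A unigene is called higher or lower when it passed 2-fold, the size criterion the study used. Unigenes are compared where FPKM was 1 or more in either library of the pair. A gene is represented by its unigene of highest mean FPKM. The libraries summed to an FPKM between 960385 and 986004, with between 102228 and 119996 rows above 0. Over the 25794 rows at 1 or more in all 3 libraries, log2 ratios had a median of 0.08 (5 against 0 psu), 0.02 (15 against 0 psu) and -0.05 (15 against 5 psu), and FPKM was not rescaled.

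Most clock genes, by main unigenes, lay within 1.25-fold in each comparison. No share of all rows within 1.25-fold was computed, so this closeness is not read as particular to the clock genes. Of the 15 clock genes with FPKM of 1 or more in any library, 14 were above 0 in all 3 libraries. The exception was NPAS2 as named by the match description. At 5 against 0 psu their log2 ratios ran between -0.38 and 0.39 with a median of 0.11, 12 of the 14 lay within 1.25-fold, and 0 passed 2-fold. At 15 against 0 psu they ran between -1.15 and 0.71 with a median of 0.02, 10 of the 14 lay within 1.25-fold, and 1 passed 2-fold, BHLHE40. At 15 against 5 psu they ran between -0.77 and 0.59 with a median of -0.06, 8 lay within 1.25-fold, and 0 passed 2-fold. Among all rows of the 5 genera above 0 in both libraries, 14.6% passed 2-fold in either direction at 5 against 0 psu, 14.9% at 15 against 0 psu and 15.6% at 15 against 5 psu. The clock genes' 0, 1 and 0 of 14 stand beside these shares as a description, since a gene was represented by its most abundant unigene and the rows were not.

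**Figure D1:**
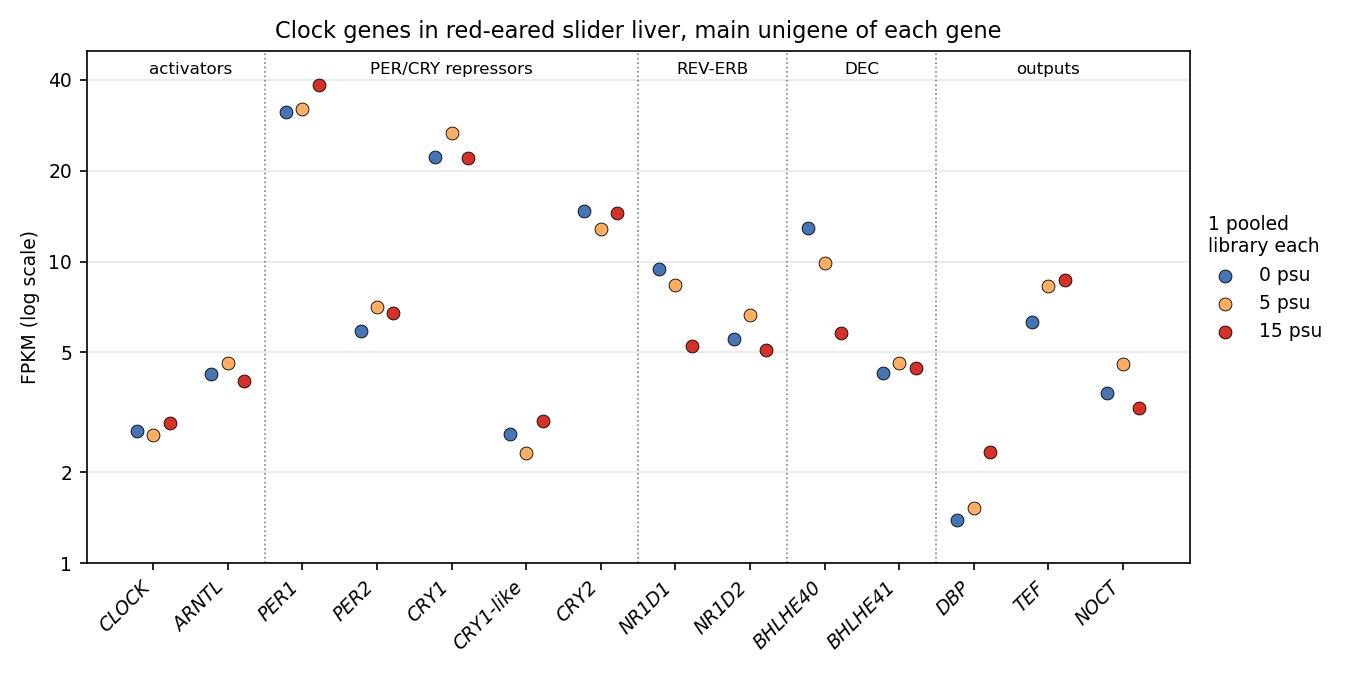
FPKM (log axis) of the 14 clock genes above 0 in all 3 libraries, main unigene of each, grouped by role, with 1 point for each library at 0, 5 and 15 psu. PER1, CRY1 and CRY2 stand highest, and the 3 points of most genes lie close together. Of the 14 genes, 6 have their lowest point at 15 psu, BHLHE40 and NR1D1 among them.

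The activators CLOCK and ARNTL were expressed at low levels that stayed close across the 3 libraries. CLOCK, the histone acetyltransferase that forms the positive limb, had FPKM of 2.75 at 0 psu, 2.66 at 5 and 2.92 at 15 psu in unigene c117214_g2, which carries its HLH and PAS domains. ARNTL, which encodes its partner BMAL1, had 4.24 in freshwater, 4.61 in 5 psu water and 4.02 at 15 psu, in the member with the alligator match. The log2 ratios against 0 psu were -0.05 at 5 psu and 0.08 at 15 psu for CLOCK, and 0.12 at 5 psu and -0.08 at 15 psu for ARNTL. A second unigene described as CLOCK, c71692_g1, is named NPAS2 by KEGG and Swissprot and stayed below 1, with 0.61 in freshwater, 0.34 at 5 psu and 0.21 at 15 psu.

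NPAS2, which can stand in for CLOCK in mammals, had 3 unigenes by its match description, each listed at 0 in at least 1 library. Unigene c44816_g1 had an FPKM of 25.9 in the library at 5 psu and none at both other salinities, where it was listed at 0, and c175944_g1 had 3.52 at 5 psu and was likewise listed at 0 in the other libraries. The third, c198833_g1, had 3.94 at 0 psu and 2.63 at 5 psu and was listed at 0 at 15 psu. All 3 match the painted turtle and none carries a Pfam domain. Summed over the 3 unigenes, NPAS2 stood at 3.94 at 0 psu, 32.05 at 5 and 0 at 15 psu, and the sum at 5 psu is mostly that of c44816_g1. Left out of this sum is c71692_g1, described as CLOCK but named NPAS2 by KEGG and Swissprot. That unigene carries HLH and PAS domains and had 0.61 in freshwater, 0.34 at 5 psu and 0.21 at 15 psu. The sum thus holds for the 3 unigenes only, not for NPAS2 as a gene.

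Among the repressors, PER1 was the most abundant clock gene. This light- and hormone-induced period gene had FPKM of 31.42 in freshwater, 32.09 in 5 psu water and 38.57 at 15 psu. Its log2 ratio was 0.03 at 5 against 0 psu and 0.29 at 15 against 0 psu, short of 2-fold in both. PER2, the period gene that also responds to body temperature and feeding in mammals, had 5.87 in freshwater, 7.07 at 5 psu and 6.78 at 15 psu, with log2 ratios of 0.26 at 5 against 0 psu and 0.20 at 15 against 0 psu. A second PER1 unigene, c56708_g1, matched to the softshell turtle, had 4.15 at 15 psu, where the libraries at 0 and 5 psu list it at 0.

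CRY1, the strongest repressor of the loop in mammals, had FPKM of 22.25 at 0 psu, 26.63 at 5 and 22.04 at 15 psu. CRY2 had 14.70 in freshwater, 12.83 in 5 psu water and 14.44 at 15 psu. The log2 ratios at 5 against 0 psu were 0.26 for CRY1 and -0.19 for CRY2, and at 15 against 0 psu they were -0.01 for CRY1 and -0.03 for CRY2. The CRY1 and CRY2 unigenes come from the same component of the assembly, c119237, so the division of reads between them is uncertain.

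Another cryptochrome, described as like CRY1 of the painted turtle, lay in 3 unigenes that share 1 protein match. Its main unigene, c123802_g4, had FPKM of 2.68 in freshwater, 2.32 at 5 psu and 2.96 at 15 psu. Unigene c117441_g5 had 2.25 at 0 psu, 1.46 at 5 and 3.64 at 15 psu, and c123802_g1 had 0.91 in freshwater, 0.73 in 5 psu water and 2.50 at 15 psu. All 3 were highest at 15 psu and lowest at 5 psu in FPKM. Relative to beta-actin, however, the main unigene was lower at 15 than at 0 psu (log2 ratio of -0.07, against 0.14 without rescaling). The 3 unigenes are not independent measurements, since they share a protein match and 2 of them come from 1 component of the assembly, c123802. At 15 against 0 psu the log2 ratios of the 2 smaller unigenes were 0.67 for c117441_g5 and 1.36 for c123802_g1, and at 15 against 5 psu they were 1.26 and 1.65 in that order. The 2-fold calls of this cryptochrome thus rest on its 2 unigenes of lower mean FPKM, although c117441_g5 was the highest of the 3 at 15 psu. With a pseudocount of 1 the log2 ratio was 0.87 for c123802_g1 at 15 against 0 psu and 0.92 for c117441_g5 at 15 against 5 psu, both within 2-fold. That of c123802_g1 at 15 against 5 psu was 1.02 and stayed past it. The sum of the 3 unigenes was 5.84 at 0 psu, 4.51 at 5 and 9.10 at 15 psu. Its log2 ratio was 0.63 at 15 against 0 psu and 0.997 at 15 against 5 psu, the latter just short of 2-fold. The Swissprot matches of the 3 unigenes differ (CRY1 of chicken, CRY2 of rat and CRY1 of human), and which gene they represent was not settled.

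The DASH cryptochrome, a relative of the photolyases that is not part of the clock loop, lay in 2 unigenes of 1 component. FPKM was 1.95 in freshwater, 3.42 at 5 psu and 3.53 at 15 psu in c119322_g1, and 0.69 at 0 psu, 1.22 at 5 and 2.95 at 15 psu in c119322_g2. Both were lowest at 0 psu and highest at 15 psu. The log2 ratios at 15 against 0 psu were 0.82 and 1.95 in the same order, and 1.26 for the 2 unigenes summed, so that the sum and c119322_g2 passed 2-fold and c119322_g1 did not. The step at 15 against 5 psu was 0.04 in c119322_g1 and fell below 0 on rescaling by the upper quartile or relative to beta-actin.

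**Figure D2:**
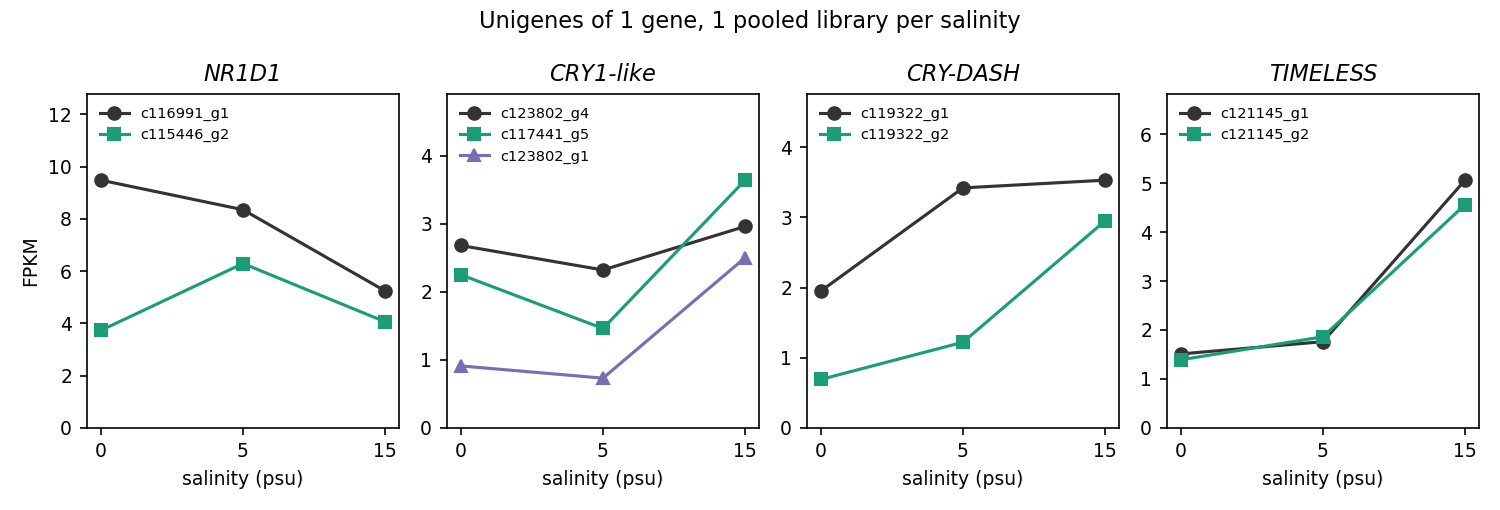
FPKM at 0, 5 and 15 psu of the unigenes that share a gene name, for NR1D1, the CRY1-like gene, CRY-DASH and TIMELESS, with 1 line for each unigene and 1 pooled library for each salinity. The 2 TIMELESS lines lie close together, whereas the 2 NR1D1 lines part: c116991_g1 is lowest at 15 psu and c115446_g2 highest at 5 psu.

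The REV-ERB receptors, nuclear receptors that bind heme and repress ARNTL, were not uniform. NR1D1 (REV-ERB alpha) had FPKM of 9.48 in freshwater, 8.35 in 5 psu water and 5.24 at 15 psu in c116991_g1, the unigene that carries both the DNA-binding and the hormone receptor domain. Its log2 ratio was -0.84 at 15 against 0 psu, short of 2-fold. The other NR1D1 unigene, c115446_g2, carries the DNA-binding domain only and had 3.73 in freshwater, 6.29 at 5 psu and 4.06 at 15 psu. The sum of both was 13.21 at 0 psu, 14.64 at 5 and 9.30 at 15 psu, with log2 ratios of 0.15 at 5 against 0 psu and -0.50 at 15 against 0 psu. NR1D2 (REV-ERB beta) had 5.53 in freshwater, 6.64 in 5 psu water and 5.09 at 15 psu. An NR1D1-like gene stayed below 1, with 0.68 at 0 psu and 0.51 at 5 psu in a unigene listed at 0 at 15 psu, and its second unigene was at 0 in all 3 libraries.

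BHLHE40 (DEC1), a repressor that answers to light, hormones and low oxygen in mammals, was, by main or summed unigenes, the clock gene that differed most among those above 0 in all 3 libraries. FPKM was 12.92 in freshwater, 9.92 at 5 psu and 5.78 at 15 psu in c113272_g5, its single unigene. It was lower at 15 than at 0 psu with a log2 ratio of -1.15, or 0.45-fold, and the ratio was -0.38 at 5 against 0 psu and -0.77 at 15 against 5 psu. With other pseudocounts or scalings the log2 ratio at 15 against 0 psu ran between -1.36 and -1.04, past 2-fold in each. A scaling shifts all ratios of a comparison by about the same amount, so this range is no measure of error between libraries. Its close relative BHLHE41 (DEC2) had 4.27 at 0 psu, 4.60 at 5 and 4.43 at 15 psu, with no such step. Whether the DEC genes differ in their ratios could not be tested with 1 library each.

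The output genes were all expressed. DBP, the PAR bZIP factor with a strong daily rhythm in mammalian liver, had the lowest level of the clock genes above 0 in all 3 libraries, with FPKM of 1.39 in freshwater, 1.52 in 5 psu water and 2.34 at 15 psu. TEF, of the same family, had 6.30 in freshwater, 8.30 at 5 psu and 8.72 at 15 psu. At 15 against 0 psu the log2 ratios were 0.71 for DBP and 0.46 for TEF, short of 2-fold. NOCT, nocturnin, an enzyme that removes a phosphate from NADP cofactors, had 3.66 at 0 psu, 4.58 at 5 and 3.27 at 15 psu. Over the main unigenes of the 14 genes, PER1, DBP and TEF stepped up with salinity and NR1D1 and BHLHE40 stepped down, while 9 had no such order. The share of all rows with such an order was not computed, so these counts are not read as a result about the clock genes. The first step of PER1 changed sign on rescaling to a median ratio of 1, and the second step of TEF did so relative to beta-actin. By summed unigenes NR1D1 did not step down, with 13.21 at 0 psu, 14.64 at 5 and 9.30 at 15 psu. A neighbouring DBP unigene outside the 5 genera, c110162_g1, had 2.56 at 0 psu, 4.1 at 5 and 2.05 at 15 psu. The order and the low level of DBP thus hold for its member unigene only.

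In order of the mean FPKM of main unigenes, PER1, CRY1 and CRY2 led the clock genes above 0 in all 3 libraries. After them came BHLHE40, TEF, NR1D1, PER2, NR1D2, BHLHE41, ARNTL, NOCT, CLOCK, the CRY1-like gene and DBP. PER1, CRY1 and CRY2 kept this order in each library, without overlap. From CRY2 downwards neighbours overlapped between libraries, apart from NR1D2 above BHLHE41 and NOCT above CLOCK. TEF, for example, ran between 6.30 and 8.72 and NR1D1 between 5.24 and 9.48, so their order in the mean is within the spread over salinities. Summed unigenes gave another order. The NR1D1 sum (13.21 at 0 psu, 14.64 at 5 and 9.30 at 15 psu) stood above BHLHE40 in each library. The CRY1-like sum (5.84 at 0 psu, 4.51 at 5 and 9.10 at 15 psu) stood above the CLOCK sum in each. Of the CRY1-like unigenes, c117441_g5 carries the photolyase domain only and the others the FAD-binding domain only. The CLOCK sum includes c71692_g1, which KEGG and Swissprot name NPAS2.

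The members that matched by family name only were mostly at low levels. The 13 NPAS3 unigenes share 1 protein of the green turtle, and 0 of them carry a KEGG, Swissprot or Pfam annotation. Their FPKM reached 6.23 in freshwater, 6.64 in 5 psu water and 4.93 at 15 psu in c119267_g1, and 8 of them reached 1 in any library. NPAS3 is a brain transcription factor in mammals. The 3 NPAS4-like unigenes stayed at or below 1.08. FPKM was 0.96 at 0 psu and 0.97 at 5 psu in c89479_g1, and 0.61 at 0 psu and 0.88 at 5 psu in c69390_g1. Both were listed at 0 at 15 psu. The third, c89479_g2, of the same component as c89479_g1, had 1.08 at 15 psu and was listed at 0 in the other libraries. Their sum was 1.57 in freshwater, 1.85 at 5 psu and 1.08 at 15 psu. BHLHE23 had 0.96 in freshwater, 0.41 at 5 psu and 0.71 at 15 psu.

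Counted as unigenes, 3 of the 28 members compared at 5 against 0 psu passed 2-fold, 3 higher and 0 lower at 5 psu, where 29.9% of the 21838 rows of the 5 genera passed, 3494 higher and 3030 lower. At 15 against 0 psu 7 of 29 members passed, 5 higher and 2 lower, where 29.6% of the 21072 rows did, 2864 higher and 3375 lower. At 15 against 5 psu 11 of 32 passed, 6 higher and 5 lower, where 30.5% of the 21500 rows did, 2791 higher and 3758 lower. The median log2 ratio of the members was 0.11 at 5 against 0 psu, 0.08 at 15 against 0 psu and -0.13 at 15 against 5 psu. Over all rows of the 5 genera these medians were 0.08, 0.01 and -0.06 in the same order.

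Many of these calls came from unigenes listed at 0 in 1 library, where the ratio is set by the pseudocount. Among members above 0 in both libraries, 1 of 26 was higher and 0 lower at 5 against 0 psu, 2 of 25 higher and 1 lower at 15 against 0 psu, and 4 of 26 higher and 1 lower at 15 against 5 psu, where 14.6%, 14.9% and 15.6% of all such rows passed in the same order. For unigenes of clock genes alone, above 0 in both libraries, the calls were 0 of 17 at 5 against 0 psu, 2 of 17 at 15 against 0 psu (c123802_g1 of the CRY1-like gene higher, BHLHE40 lower) and 2 of 17 at 15 against 5 psu (both of the CRY1-like gene, higher), beside the same 3 shares. In the band of FPKM between 1 and 10 in the higher library, 0 of 13 clock gene unigenes passed 2-fold at 5 against 0 psu, where 17.9% of all rows in that band did. The count was 1 of 13 at 15 against 0 psu, where 17.8% of all rows did. At 15 against 5 psu it was 2 of 14, where 18.8% did. These counts of clock gene unigenes include the CRY1-like unigenes, although which gene they represent was not settled.

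**Figure D3:**
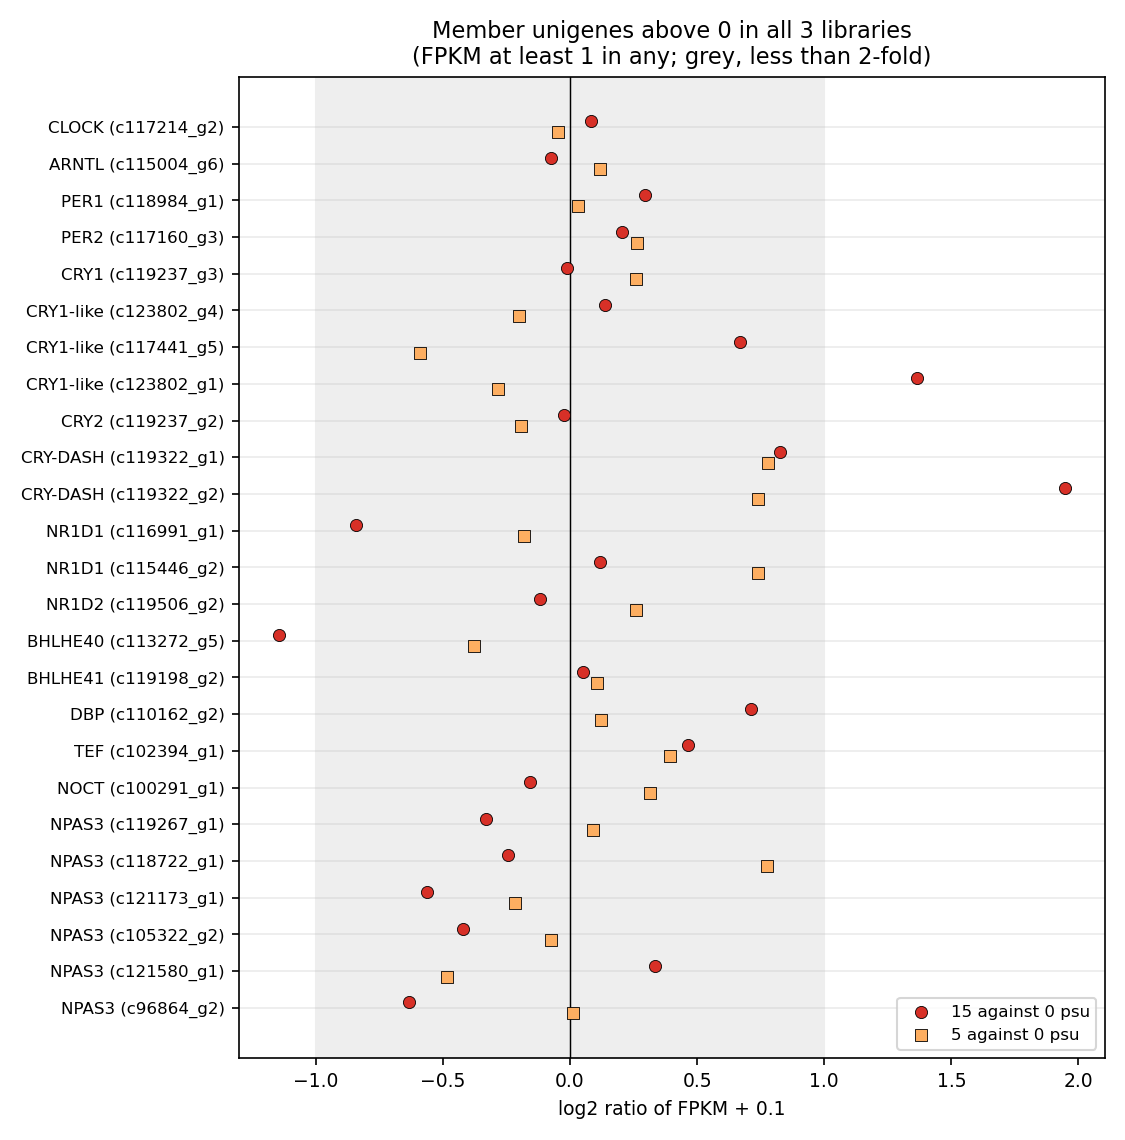
Log2 ratios of FPKM + 0.1 at 15 against 0 psu (circles) and 5 against 0 psu (squares) for the member unigenes above 0 in all 3 libraries and at 1 or more in any, with the range within 2-fold in grey. Outside the grey band lie c123802_g1 of the CRY1-like gene (1.36), c119322_g2 of CRY-DASH (1.95) and BHLHE40 (-1.15), all at 15 against 0 psu.

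**Figure D4:**
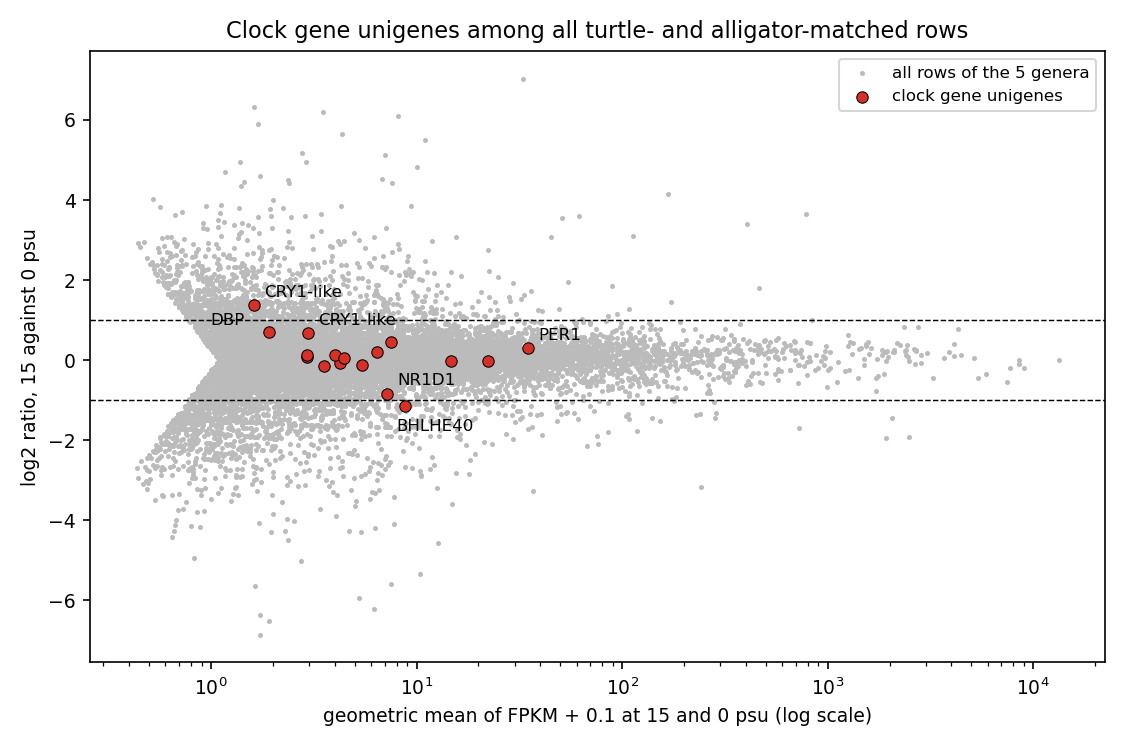
Log2 ratio at 15 against 0 psu over the geometric mean of FPKM + 0.1 in the same 2 libraries (log axis) for all rows of the 5 genera above 0 in both and at 1 or more in either (grey), with the 17 unigenes of clock genes in red and 2-fold as broken lines. The spread of the grey rows widens at low FPKM, and 2 red points lie outside the lines.

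Genes that act on the clock proteins were counted as a whole list of 18, of which 17 were found and 16 had ratios in each comparison. The HLF gene was not found by the name search. At 5 against 0 psu 1 was higher and 1 lower, at 15 against 0 psu 2 were higher and 1 lower, and at 15 against 5 psu 1 was higher and 0 lower, with medians of -0.04, -0.06 and 0.00 in that order, beside the 14.6%, 14.9% and 15.6% of rows past 2-fold given above. RORA, the receptor that activates ARNTL at the sites where REV-ERB represses it, had FPKM of 1.55 at 0 psu, 3.59 at 5 and 3.89 at 15 psu in its main unigene, with log2 ratios of 1.16 at 5 against 0 psu and 1.27 at 15 against 0 psu. With a pseudocount of 1 these RORA ratios were 0.85 and 0.94, within 2-fold. The second RORA unigene had 2.32 in freshwater, 1.93 in 5 psu water and 2.09 at 15 psu, and the sum of both, 3.87 in freshwater, 5.52 at 5 psu and 5.98 at 15 psu, stayed within 2-fold. USP2, a deubiquitinase that acts on clock proteins in mouse, had 2.61 at 0 psu, 0.59 at 5 and 0.37 at 15 psu in its main unigene. The log2 ratio was -1.97 at 5 against 0 psu and -2.53 at 15 against 0 psu. Its sum over 4 unigenes, 3.21 in freshwater, 5.04 in 5 psu water and 1.30 at 15 psu, did not follow that order, because c194490_g1 had 3.45 at 5 psu and was listed at 0 in the other libraries. The USP2 sum was past 2-fold at 15 against 0 psu (-1.24) and at 15 against 5 psu (-1.88).

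TIMELESS, known in vertebrates mainly for guarding the DNA replication fork, had unigenes that moved alike. The 2 unigenes had FPKM of 1.51 and 1.39 in freshwater, 1.76 and 1.86 at 5 psu and 5.06 and 4.56 at 15 psu. The log2 ratios at 15 against 0 psu were 1.68 and 1.65, so both unigenes were higher. For the main TIMELESS unigene the ratio stayed past 2-fold under each pseudocount and scaling (1.27 to 1.77), which is no measure of error between libraries. TIPIN, its binding partner at the fork, had 6.06 at 0 psu, 6.08 at 5 and 5.71 at 15 psu. Both TIMELESS unigenes come from 1 component of the assembly and are not independent measurements.

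PRKAA2, a catalytic subunit of the energy sensor AMPK, had 2.56 at 5 psu and was listed at 0 in the other libraries, so it has no ratio. The remaining partners, by their main unigenes, stayed within 2-fold. NFIL3, the repressor that competes with DBP and TEF for D-box sites, had FPKM of 7.28 in freshwater, 6.17 in 5 psu water and 3.93 at 15 psu, a log2 ratio of -0.87 at 15 against 0 psu. CIPC, an inhibitor of CLOCK, had 11.59 in freshwater, 16.39 at 5 psu and 18.59 at 15 psu. CIART, a repressor of CLOCK and BMAL1 in mouse, had 13.40 at 0 psu, 16.17 at 5 and 20.82 at 15 psu. The log2 ratios at 15 against 0 psu were 0.68 for CIPC and 0.63 for CIART. Summed over its 3 unigenes, CIPC had 16.55 in freshwater, 19.77 at 5 psu and 19.10 at 15 psu, and so was not highest at 15 psu. Its unigene c12307_g2 had 4.96 in freshwater and 3.38 at 5 psu and was listed at 0 at 15 psu. The kinases of the period proteins, CSNK1D and CSNK1E, had 12.85 and 9.01 in freshwater, 13.91 and 8.43 in 5 psu water and 12.60 and 10.38 at 15 psu.

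Of 11 genes known to be under clock control in mouse liver, 10 were found, CYP7A1 not. None was higher or lower at 5 against 0 psu or at 15 against 5 psu, and 1 was lower at 15 against 0 psu, where 14.9% of all rows above 0 in both libraries passed in that comparison, 14.6% at 5 against 0 psu and 15.6% at 15 against 5 psu. The list had medians of -0.04 at 5 against 0 psu, -0.07 at 15 against 0 psu and -0.14 at 15 against 5 psu. The gene that was lower was HNF4A, a master regulator of hepatocyte genes, with 18.62 at 0 psu, 14.83 at 5 and 8.98 at 15 psu and a log2 ratio of -1.04 at 15 against 0 psu. The HNF4A ratio was within 2-fold with a pseudocount of 1 (-0.98) and on rescaling by the upper quartile (-0.95). NAMPT, the enzyme that sets NAD supply, had 5.50 in freshwater, 5.68 in 5 psu water and 4.95 at 15 psu. POR, the electron donor of the cytochromes P450, had 31.87 in freshwater, 34.67 at 5 psu and 36.37 at 15 psu. GYS2, liver glycogen synthase, had 47.32 at 0 psu, 42.09 at 5 and 35.33 at 15 psu. A second LPIN1 unigene, c123874_g4, of the lipid phosphatase lipin, had 0.27 in freshwater, 1.08 in 5 psu water and 5.02 at 15 psu, while the main LPIN1 unigene had 4.40 in freshwater, 5.47 at 5 psu and 5.12 at 15 psu. The LPIN1 sum was 4.67 at 0 psu, 6.55 at 5 and 10.14 at 15 psu, past 2-fold at 15 against 0 psu with a log2 ratio of 1.10, while the HNF4A sum was within it (-0.97).

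Genes that respond to possible inputs to the clock were counted too, as lists of glucocorticoid responsive genes and of cold and immediate early genes. Their levels do not measure hormone, temperature or any other input. All 7 of the glucocorticoid responsive genes were found, and 0 were higher and 1 lower at 5 against 0 psu, 0 higher and 1 lower at 15 against 0 psu, and 1 higher and 0 lower at 15 against 5 psu. Of all rows of the 5 genera above 0 in both libraries, 14.6%, 14.9% and 15.6% passed 2-fold in the same order. The list had medians of -0.26, 0.26 and 0.32 in that order, with 5 of 7 ratios negative at 5 against 0 psu and 5 of 7 positive at 15 against 0 psu. No share of all rows by sign was computed, so these counts are not read as a result about the list. Relative to beta-actin every log2 ratio at 15 against 0 psu shifts by -0.22, more than the DUSP1 ratio of 0.18 in size. TAT, an amino acid catabolic enzyme, was lower at 5 and 15 psu, with 20.50 at 0 psu, 6.35 at 5 and 7.93 at 15 psu, log2 ratios of -1.68 at 5 against 0 psu and -1.36 at 15 against 0 psu. FKBP5, a chaperone of the glucocorticoid receptor, had 28.09 in freshwater, 22.29 in 5 psu water and 47.49 at 15 psu, and was higher at 15 than at 5 psu with a log2 ratio of 1.09, or 0.90 relative to beta-actin. TSC22D3 had 56.72 in freshwater, 80.12 at 5 psu and 98.05 at 15 psu, within 2-fold. The kinase SGK1, the phosphatase DUSP1 and the transcription factors ZBTB16 and KLF9 were also within 2-fold, with log2 ratios at 15 against 0 psu of 0.80, 0.18, 0.26 and -0.43 in that order. Of the 7 cold and immediate early genes 5 were found, of which 0 passed 2-fold at 5 against 0 psu, 1 was higher at 15 against 0 psu and 0 passed at 15 against 5 psu, with medians of 0.15, 0.14 and 0.29. Beside these calls stand the same shares of all rows, 14.6%, 14.9% and 15.6%. FOS was higher at 15 than at 0 psu, with 1.07 at 0 psu, 1.88 at 5 and 3.06 at 15 psu and a log2 ratio of 1.43, or 0.97 with a pseudocount of 1. RBM3, a cold-inducible RNA-binding protein, stood at 1748 in freshwater, 1817 in 5 psu water and 1924 at 15 psu. The other immediate early genes had log2 ratios at 15 against 0 psu of 0.81 for JUNB, 0.12 for EGR1 and 0.05 for ATF3.

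**Figure D5:**
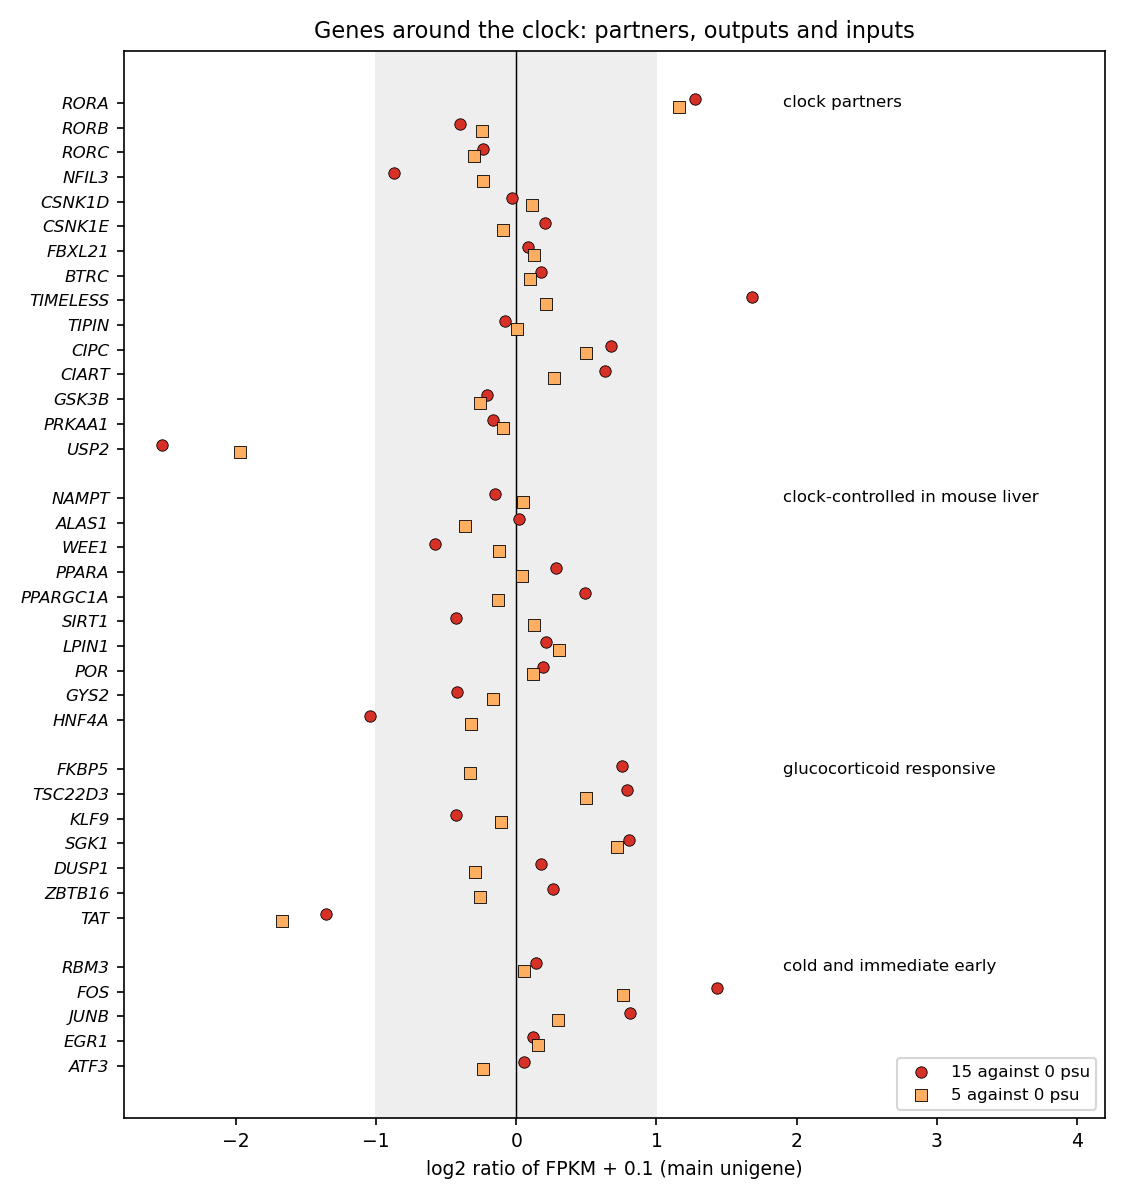
Log2 ratios of FPKM + 0.1 at 15 against 0 psu (circles) and 5 against 0 psu (squares) for the main unigenes of the clock partners (1 of the 16 is not drawn), the genes under clock control in mouse liver, the glucocorticoid responsive genes and the cold and immediate early genes, with the range within 2-fold in grey. RORA, TIMELESS and FOS lie to the right of the grey band and USP2, TAT and HNF4A to its left, at 15 against 0 psu.

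Markers of cell types moved with the libraries too. Liver identity was clear from albumin, with FPKM of 4846 in freshwater, 824 at 5 psu and 1268 at 15 psu in its main unigene, and from APOA1, with 2751 at 0 psu, 2403 at 5 and 2569 at 15 psu. Of the 6 hepatocyte markers 5 were found, and their summed FPKM was 13522 in freshwater, 5647 in 5 psu water and 6516 at 15 psu. Albumin made up most of that difference, and without it the sum was 4875 at 0 psu, 4117 at 5 and 4250 at 15 psu. The 3 erythrocyte markers found of 4 summed to 1680 in freshwater, 2108 at 5 psu and 1226 at 15 psu. The 3 lymphocyte markers summed to 120.15 at 0 psu, 55.08 at 5 and 44.78 at 15 psu, the 2 stellate and fibroblast markers found of 3 to 54.37, 52.08 and 31.14, and the 3 bile duct markers to 58.47, 64.10 and 18.23, in the same order of salinity. Most of the lymphocyte sum in freshwater was CD3E, with 92.11 there, 25.62 at 5 psu and 24 at 15 psu. Its unigene c101741_g1 had 30.1 in freshwater and was listed at 0 in the other libraries. CD79B had 12.39 at 0 psu, 8.81 at 5 and 5.61 at 15 psu. PTPRC was highest at 5 psu, with 15.65 at 0 psu, 20.65 at 5 and 15.17 at 15 psu. Most of the bile duct sum was EPCAM, with 43.12 in freshwater, 58.71 in 5 psu water and 10.34 at 15 psu, and KRT19 was lowest at 5 psu. The 3 endothelial markers summed to 32.75 in freshwater, 36.16 in 5 psu water and 33.36 at 15 psu. Skeletal muscle myosin, the single muscle marker found of 3, summed to 0.72 in freshwater, 6.04 at 5 psu and 33.97 at 15 psu, with its main unigene listed at 0 in freshwater and at 5 psu, and the 2 pancreas markers found of 3 to 112.18, 96.96 and 124.54. Within the pancreas sum, AMY2 had 89.18 at 0 psu, 95.88 at 5 and 120.27 at 15 psu. PRSS was highest in freshwater instead, with 23 there, 1.08 at 5 psu and 4.27 at 15 psu. Erythrocyte, lymphocyte, stellate and bile duct sums were thus lowest at 15 psu, and the myosin and pancreas sums were highest there. The part of cell types in the values of the clock genes and of the further lists was not tested. In mixed tissue fewer cells of a type and less RNA per cell cannot be told apart.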

How the data were processed

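Liver RNA of 3 turtles per salinity was pooled into 1 poly(A) library. The authors used SeqPrep and Sickle for trimming, Trinity for assembly and RSEM for the FPKM of each unigene (Bowtie and RSEM stand in the submitters' processing notes); versions are not given in the sources used here. The deposited table of FPKM, given to 2 decimals, also carries NR, Swissprot, KEGG and Pfam matches. The depth behind a value is unknown without read counts, which were not used here, and no interval or detection limit was computed.

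Members were found by the wording of their NR match. The members and gene lists were chosen with earlier results of these data known. Every gene reaching FPKM of 1 in any library was named by rule, and the 4 further lists were counted whole, with 1 gene of the partner list not reported here by name. Log2 ratios used a pseudocount of 0.1, a minimum of 1 in either library and a 2-fold criterion, with no test. No sequence or coordinate was used. The alternatives were pseudocounts of 1 and 0.01, 3 rescalings, no filter and a filter of 5, a 1.5-fold criterion and 1 or summed unigenes per gene. The step was tested on simulated data, a copy of a library with some rows changed by a fixed factor and no noise added. That outcome was set in advance and is no measure of error in the 2-fold calls. Python 3.11.15, numpy 2.4.6, pandas 2.3.3 and matplotlib 3.10.9 were used.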

Additional observations from a re-analysis of the deposited data

Results flagged for a closer look

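Some unigenes with clock gene names have a best match outside the 5 genera and were left out of the comparisons above. DBP was found again in c110162_g1, a neighbour of the DBP member in the assembly that matches a gecko protein, at 4.1 FPKM in 5 psu water and 2.05 at 15 psu, against 2.56 in freshwater. Period circadian protein homolog 3 (PER3) had 4 unigenes, each with a bird as best match and each listed at 0 at 0 psu. These were c154638_g1 with 14.45 at 15 psu, c189309_g1 with 3.07 at 15 psu, c143631_g1 with 0.51 at 15 psu, and c205785_g1 with 6.44 at 5 psu. NPAS3 had c173412_g1, which matches the zebra finch, with 3.18 at 5 psu, listed at 0 at 15 psu and at 0 psu. Each of the 6 was above its level at 0 psu in at least 1 other library, in 1 library each and with no replicate. All but the DBP unigene were listed at 0 at 0 psu, so any value in another library put them above it. The share of all rows above their level at 0 psu was not computed, so this is not read as a result about these unigenes. Their origin was not tested.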

How the results depend on the processing

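The number of members past 2-fold, as unigenes, was 3 at 5 against 0 psu, 7 at 15 against 0 psu and 11 at 15 against 5 psu, beside the 29.9%, 29.6% and 30.5% of rows given above. In the same order it was 8, 12 and 17 at 1.5-fold. With a filter of 5 it was 1 of 11, 1 of 9 and 1 of 11, and with 1 unigene per gene 1 of 17, 1 of 16 and 1 of 17. In both of these settings the call at 15 against 0 psu was BHLHE40. The call in the other comparisons was c44816_g1 of NPAS2, listed at 0 at 0 and 15 psu, so the pseudocount sets its ratio. With no filter the number past 2-fold was 6 at 5 against 0 psu and 12 at 15 against 0 psu. With a pseudocount of 1 it was 7 at 15 against 5 psu. No share of all rows was computed under these alternative settings, so their counts are not read as a result about the members. After seeing the data, 2 alternatives were added: members above 0 in both libraries gave 1, 3 and 5, and members with a clock gene name gave 4 at 15 against 0 psu and 6 at 15 against 5 psu. The median log2 ratio, 0.11 at 5 against 0 psu, was 0.25 on rescaling by the upper quartile and 0.26 with a filter of 5. At 15 against 0 psu it was 0.08, and -0.20 relative to beta-actin, -0.075 with no filter and -0.026 with a filter of 5. At 15 against 5 psu it was -0.13, and -0.24 by the upper quartile, -0.42 relative to beta-actin, -0.35 with no filter and -0.38 with a filter of 5. The upper quartile shifts every log2 ratio by 0.14 at 5 against 0 psu, and beta-actin by -0.22 at 15 against 0 psu and -0.19 at 15 against 5 psu.

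Of 288 alternatives to 48 ratios of named genes, 286 stayed on the same side of 2-fold. The exceptions at 15 against 0 psu were CRY-DASH with its unigenes summed (1.26) and NR1D1 relative to beta-actin (-1.06). Most of these ratios began well within 2-fold, and for a gene with a single unigene the summed alternative repeats the main value. The count of alternatives on the same side was therefore largely set in advance and is no measure of robustness. A change of sign was seen for 14 ratios, each at most 0.20 in size, and in 13 of them by scaling or pseudocount. The pseudocounts and scalings applied above to single unigenes past 2-fold and to the further lists were also chosen after seeing the data. The causes were not tested. No paired analysis was possible because each salinity has 1 library.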
